A study of Rattus norvegicus with 12 samples.

Results

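The 38 genes described here encode the antioxidant enzymes of the rat heart and the proteins that make, recycle and use glutathione, together with the transcription factor NRF2 and its partner KEAP1. They were chosen by name, and each was given by its probe with the highest mean signal. Of the 38 genes, 35 had a probe on the array, and no probe is named for Prdx4, Mgst3 or Msrb1. Of the 35, 34 passed the filter on dim probes and are among the 10281 probes tested of the 22517 on the array. All of these 34 were above background on all 12 arrays, so none passed through 1 group alone. Srxn1, which encodes sulfiredoxin, was not well above background on any array and was not tested.

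Left ventricular RNA of adult Wistar rats was hybridised to 1 single-colour Illumina rat BeadChip per heart. An adeno-associated virus (AAV) of serotype 9 had been given through a tail vein and carried human VEGF-B, a growth factor that binds the receptor VEGFR-1, in 6 rats (AAV-VEGF-B) or human serum albumin in 6 control rats (AAV-HSA). Each group held 3 females after 2 months of expression and 3 males after 4 months, and the males had received the injection again. Sex, duration and the repeated injection therefore cannot be told apart, and the animals, which carried no engineered allele, differed in the vector alone within a stratum. The sources used here name neither the promoter of the vectors nor the VEGF-B isoform in each rat nor the exact ages, and the level of the transgene was not checked. Signals ran from 97.1 to 45492.6 with array medians of 151.8 to 179.6, and the correlation of log2 signals between arrays was 0.988 to 0.995. All 15 cardiomyocyte markers with a probe passed the filter on dim probes.

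Superoxide leaking from the respiratory chain is turned into hydrogen peroxide by superoxide dismutases, and the peroxide is then removed by catalase, by glutathione peroxidases and by peroxiredoxins. Glutathione peroxidases draw their electrons from glutathione and peroxiredoxins from thioredoxin, and both carriers are reduced again at the expense of NADPH by glutathione reductase and thioredoxin reductases, with separate sets of enzymes in the cytosol and in mitochondria. Glutathione transferases, NAD(P)H quinone reductase and heme oxygenase belong to the wider defence, much of which NRF2 can induce from antioxidant response elements once it is released from KEAP1.

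The core of the antioxidant response element, TGACNNNGC, was searched for on both strands of the 300 bases around each gene start (250 before it and 50 after it; RefSeq promoters, rat build GRCr8). Of the 38 genes 33 matched a promoter in this table, and 9 of these (27.3%) held the motif, beside 4038 of all 33469 promoters (12.1%). The 9 were Gclm, Gstp1, Hmox2, Nfe2l2, Nnt, Prdx1, Prdx4, Prdx5 and Sod2. The windows of 4 of them, 1 gene each of glutathione synthesis and glutathione transfer and 2 peroxiredoxins, are given below 5′ to 3′ on the strand of the motif, with the motif in capitals. Counted along the gene, the motif base farthest upstream lies 172 bases (Gclm), 61 bases (Gstp1), 135 bases (Prdx1) and 1 base (Prdx5) before the gene start. On the printed strand it is the first motif base for Gstp1 and the last for Gclm, Prdx1 and Prdx5. The motif of Prdx5 thus runs across the gene start. The letters TGACTCA, an AP-1 binding sequence, overlap the motif of Gstp1 and of Prdx1. A match describes the letters in the window and is not a measure of binding.
Gclm, chr2:213031953-213031981, minus strand: tggaagacaaTGACTAAGCagaaaccgca
Gstp1, chr1:210769748-210769776, minus strand: tccactgtgtTGACTCAGCatccggggcg
Prdx1, chr5:135383761-135383789, minus strand: cggcggggtaTGACTCAGCgctttccctg
Prdx5, chr1:213532010-213532038, plus strand: cacccgcagaTGACTCTGCccacaggagg

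No antioxidant gene passed the test over vector, and most of the measured changes were small. The largest were lower signals of Txnrd1, the cytosolic thioredoxin reductase, at -0.49 ± 0.15 on the log2 scale (SE, n = 6 and 6) or 0.711-fold, of Gsta4, a glutathione transferase of lipid aldehydes, at -0.34 ± 0.14, and of Cat, catalase of the peroxisome, at -0.33 ± 0.10. The largest rise in signal was that of Gstp1 at 0.24 ± 0.10. With limma's moderated fit and Benjamini-Hochberg adjustment over all tested probes, 0 of the 34 genes passed an adjusted p of 0.05, beside 535 of all 10281 probes (5.2%), of which 429 (4.17%) were higher and 106 (1.03%) lower with AAV-VEGF-B. At an unadjusted p under 0.05 there were 1 gene with a higher and 4 with a lower signal (14.7% of the genes, beside 20% of all probes, 10.6% higher and 9.38% lower). The lowest adjusted p was 0.066, of Txnrd1. In 0 of the 34 genes did the values of the vectors separate completely, as they did for 3.94% of all probes. With only 34 genes, neither count of 0 can tell them from the other probes. Some other settings called 1 gene, Cat.

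The intervals show how large a change the fit without strata leaves possible. In that fit a difference between the strata adds to the spread. The 95% interval of the change lay wholly within 0.5 of 0, that is within 1.41-fold in either direction, for 30 of the 34 genes and for 81.2% of all probes, and within 0.3 of 0 for 16 of the 34. The other 4 genes, whose intervals reach further, were Txnrd1, Cat, Gsta4 and Txn2. Of these Txn2 also differed between the strata, by 0.58 in males minus females. The median absolute change was 0.075 over the genes and 0.115 over all tested probes. The median SE was 0.10 for both. The genes were brighter than most probes: 10 of the 34 had a mean log2 signal above 12, as did 5.26% of all tested probes. The part of signal level in the sizes of change and the intervals was not tested. Of the 34 changes 26 lay below 0, but only 15 when the arrays were scaled to a common median in place of quantile normalization, and 56.2% of all probes lay below 0 in the first case. The median change was -0.06 over the genes and -0.02 over all probes, and with median scaling it was 0.03 over the genes and 0.08 over all probes. The sign of these small changes is thus set by the scaling for many of the genes.

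**Figure D1:**
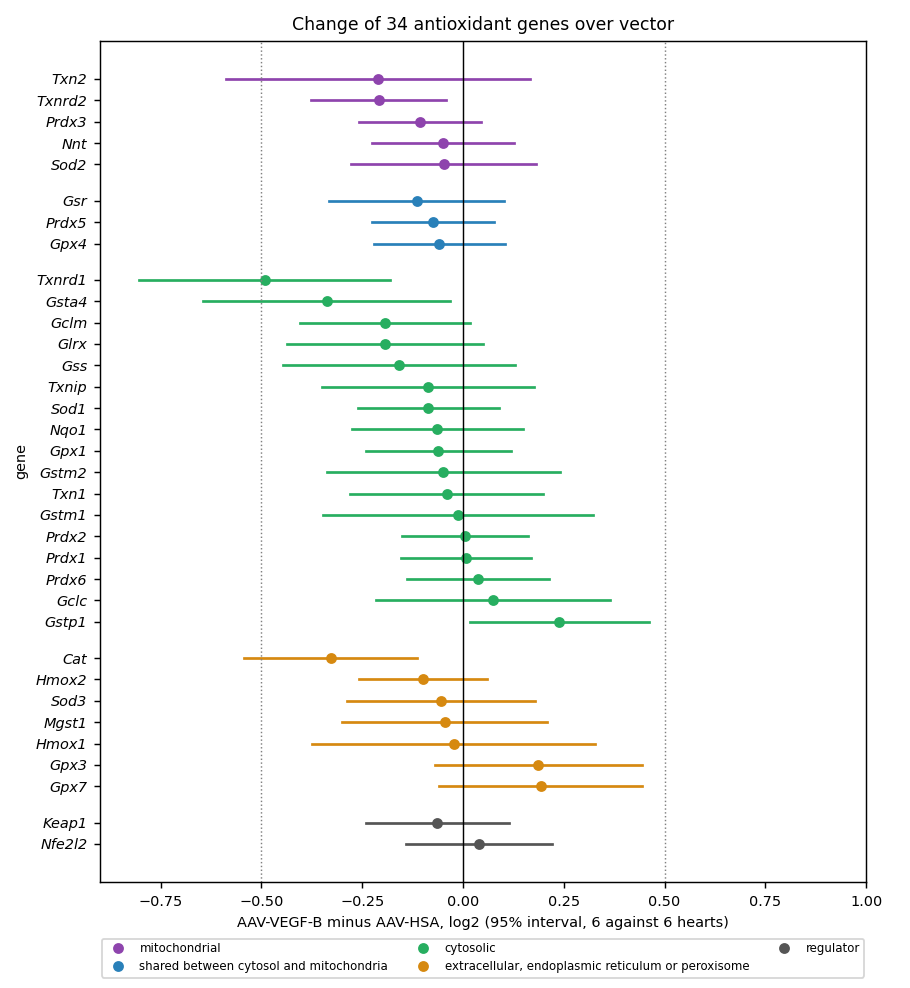
Change of each of the 34 tested antioxidant genes over vector, AAV-VEGF-B minus AAV-HSA on the log2 scale, as points with 95% intervals from limma (6 against 6 hearts), grouped by the compartment of the protein. Dotted lines stand at 0.5 on each side of 0. The intervals of 30 genes lie between them, and those of Txnrd1, Cat, Gsta4 and Txn2 pass the lower line.

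Txnrd1 uses NADPH to reduce cytosolic thioredoxin and is a known NRF2 target. Its normalized log2 signal was 8.01, 8.30 and 7.93 in the AAV-HSA females and 8.28, 8.03 and 8.73 in the AAV-HSA males. With AAV-VEGF-B it was 7.998, 7.91 and 7.69 in the females and 7.94, 7.45 and 7.34 in the males. All 6 AAV-VEGF-B hearts lay below the AAV-HSA mean of 8.21 ± 0.29 (SD, n = 6) and 4 of them below every AAV-HSA heart, so the groups overlapped at 2 hearts. The change of -0.49 had a 95% interval from -0.80 to -0.18 and missed the threshold (limma adjusted p = 0.066). It was -0.34 with median scaling (adjusted p = 0.24) and -0.32 without background correction (0.052). It was -0.21 in the females and -0.77 in the males, where the adjusted p was 0.093. The difference between the strata, -0.56, had an adjusted p of 0.94.

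Catalase splits hydrogen peroxide without a thiol donor. Cat read 10.46, 10.57 and 10.23 in the AAV-HSA females and 10.01, 10.33 and 10.57 in the AAV-HSA males, against 9.86, 10.05 and 10.17 and 9.95, 10.13 and 10.04 in the AAV-VEGF-B females and males. All 6 AAV-VEGF-B hearts were below the AAV-HSA mean, but the AAV-HSA male at 10.01 lay among them and only 2 AAV-VEGF-B hearts were below it. The change was -0.33 with a 95% interval from -0.54 to -0.11 (limma adjusted p = 0.072), -0.40 in the females and -0.26 in the males. Without background correction the change of -0.30 passed (adjusted p = 0.038), as it did in the deposited log2 table (-0.30, adjusted p = 0.037). Without the AAV-HSA male at 10.01, replicate 1, it was -0.40 with an adjusted p of 0.020. With median scaling it was -0.20 with an adjusted p of 0.32, so the call rests on the processing.

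Of the other genes with an unadjusted p under 0.05, Txnrd2, the mitochondrial thioredoxin reductase, read 10.10, 9.98 and 9.99 in AAV-HSA females, 10.04, 9.91 and 9.98 in AAV-HSA males, 9.51, 9.84 and 9.87 in AAV-VEGF-B females and 9.78, 9.92 and 9.82 in AAV-VEGF-B males. It was below every AAV-HSA heart in 5 of 6 AAV-VEGF-B hearts, by -0.21 ± 0.08 in the mean (adjusted p = 0.14), and the female at 9.51 stands apart from the other 5. With median scaling the change was -0.09 (0.65). Gsta4, which conjugates 4-hydroxynonenal and related products of lipid peroxidation, read 5.97, 6.41 and 6.43 and then 6.85, 6.60 and 6.36 in AAV-HSA females and males. With AAV-VEGF-B it read 6.11, 5.80 and 6.21 and then 6.09, 5.85 and 6.55. The groups overlapped widely (adjusted p = 0.20). The probe was close to background, with a detection p of up to 0.04 on single arrays, and its change was -0.14 without background correction (0.24). Gstp1, the pi-class transferase whose motif window is printed above, read 11.12, 11.26 and 11.24 in AAV-HSA females and 11.45, 11.22 and 11.53 in AAV-HSA males. It read 11.42, 11.24 and 11.46 in AAV-VEGF-B females and 11.59, 11.78 and 11.77 in AAV-VEGF-B males. The 3 AAV-VEGF-B males were above all the other hearts, while the females overlapped with both groups of controls (adjusted p = 0.21). A second probe of Gstp1 was at 0.34 ± 0.15 (adjusted p = 0.21), at 0.39 in the females and 0.28 in the males, against 0.17 and 0.31 for the first, and the other one was too dim to be tested. Gclm, the modifier subunit of the rate-limiting enzyme of glutathione synthesis, came next at -0.19 ± 0.10 (adjusted p = 0.29), and at -0.06 with median scaling (0.78).

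**Figure D2:**
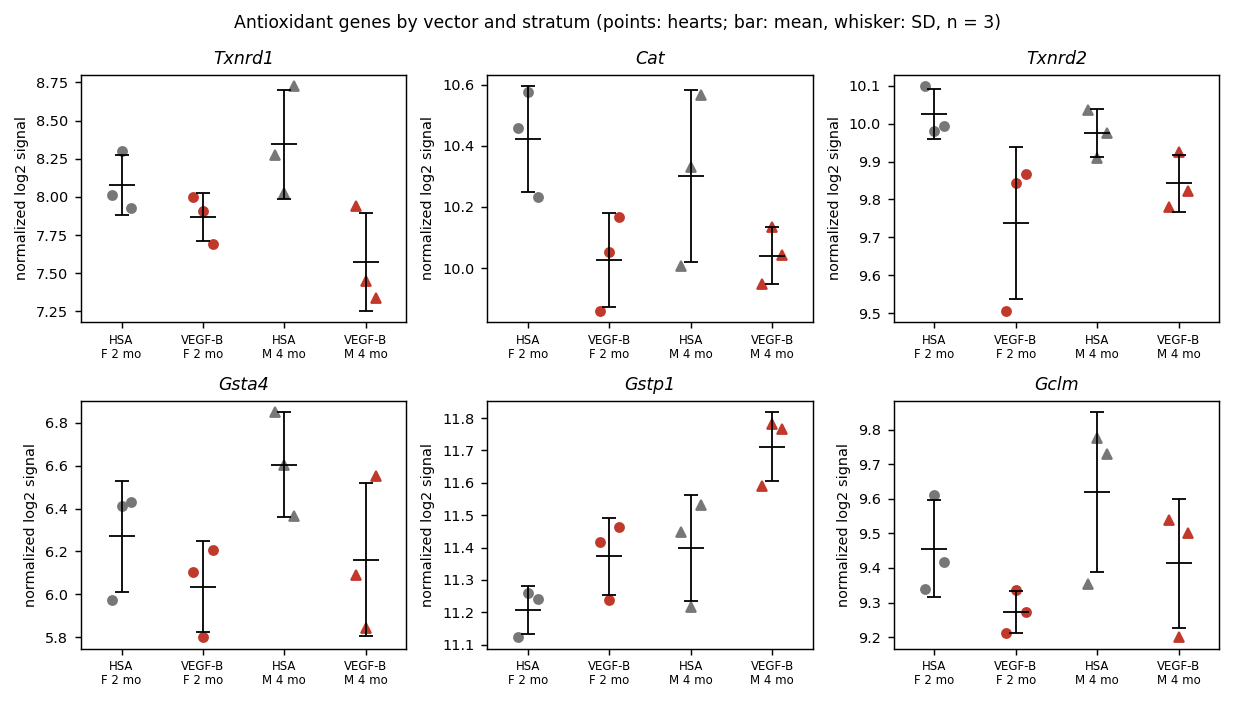
Normalized log2 signal of Txnrd1, Cat, Txnrd2, Gsta4, Gstp1 and Gclm in each heart (circles, females after 2 months; triangles, males after 4 months; grey, AAV-HSA; red, AAV-VEGF-B), with the mean and SD of the 3 hearts of each group. Axes differ between panels and do not start at 0. In none of the 6 genes do all red points lie on 1 side of all grey points.

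Of the enzymes that remove superoxide and peroxide none passed, and the values that follow are log2 changes over vector, each with limma's adjusted p. Cytosolic Sod1, mitochondrial Sod2 and extracellular Sod3 were at -0.09, -0.05 and -0.05 (adjusted p = 0.60, 0.85 and 0.82). Among the glutathione peroxidases, Gpx1, the main cytosolic form, was at -0.06 (0.73), and Gpx4, which reduces lipid hydroperoxides in membranes, was at -0.06 (0.71). Gpx3, secreted into plasma, and Gpx7, a form of the endoplasmic reticulum, were at 0.19 (0.41) and 0.19 (0.39). The 5 peroxiredoxins tested lay between -0.11 and 0.04: Prdx3, the mitochondrial member, at -0.11 (0.43), Prdx5 at -0.07 (0.60), Prdx1 at 0.01 (0.97), Prdx2 at 0.01 (0.98) and Prdx6 at 0.04 (0.84). Their intervals were among the narrow ones, for example from -0.15 to 0.17 for Prdx1 and from -0.26 to 0.04 for Prdx3.

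The thioredoxin genes held the lowest median of the role groups, -0.20 over 6 genes, with all 6 below 0 in the main analysis. With median scaling their median was -0.08 and 5 were below 0, with Txn1 at 0.06. Next to Txnrd1 and Txnrd2 they were Txn2, mitochondrial thioredoxin, at -0.21 (0.54; -0.34 without AAV-VEGF-B replicate 4 and -0.12 without AAV-VEGF-B replicate 1), Glrx, glutaredoxin, at -0.19 (0.36), Txnip, which binds and inhibits thioredoxin, at -0.09 (0.74), and Txn1, cytosolic thioredoxin, at -0.04 (0.88). In glutathione synthesis, the catalytic subunit Gclc was at 0.07 (0.81) and glutathione synthetase Gss at -0.16 (0.55). Glutathione reductase Gsr was at -0.11 (0.57), and Nnt, which makes NADPH in the inner mitochondrial membrane, at -0.05 (0.79). The transferases Gstm1, Gstm2 and Mgst1 were at -0.01, -0.05 and -0.05 (0.98, 0.88 and 0.87).

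Of the antioxidant genes usually read as reporters of NRF2 activity none passed, and Srxn1 was not tested. Txnrd1, Gclm and Gstp1, given above, were at -0.49, -0.19 and 0.24 (limma adjusted p = 0.066, 0.29 and 0.21). In a separate list of 16 tested NRF2 partners and other targets, given below, Cbr1 was called lower (-0.51, 0.049) and 15 genes did not pass. Nqo1, the quinone reductase, was at -0.06 with a 95% interval from -0.28 to 0.15 (0.77), and Hmox1, the inducible heme oxygenase, at -0.02 with an interval from -0.37 to 0.33 (0.96). The constitutive Hmox2 was at -0.10 (0.49). Nfe2l2, which encodes NRF2, was at 0.04 (0.84), and Keap1 at -0.06 (0.72). The values are transcript levels only, and NRF2 is controlled largely through the stability of its protein, which the arrays do not measure. Among the 8 tested genes whose promoter held the motif, changes ran from -0.19 (Gclm) to 0.24 (Gstp1) and 0 passed, beside 5.2% of all probes. With only 8 genes this count cannot tell them from the other probes.

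Cytosolic and mitochondrial enzymes were then set side by side. The 5 genes of mitochondrial proteins (Sod2, Prdx3, Txn2, Txnrd2, Nnt) were all below 0 with a median change of -0.11 (4 of them with median scaling, where the median was -0.07 and Sod2 was at 0.02), and 12 of the 17 tested genes of cytosolic proteins (8 with median scaling, where the median was 0.04) were below 0 with a median of -0.06. In the females the medians were -0.12 and -0.03, in the males -0.12 and -0.05. The 3 genes with products in both places, Gsr, Prdx5 and Gpx4, had a median of -0.07, and the 7 of extracellular, endoplasmic reticulum or peroxisomal proteins one of -0.05. None of these lists held a gene called over vector. Over each heart, the mean deviation of the mitochondrial genes from their own mean over 12 hearts minus that of the cytosolic genes ran from -0.10 to 0.15 in AAV-HSA hearts (mean 0.021 ± 0.083, SD, n = 6). In AAV-VEGF-B hearts it ran from -0.18 to 0.14 (mean -0.021 ± 0.11). The ranges of this difference overlapped almost fully. The mitochondrial deviation alone ran from -0.0098 to 0.093 in AAV-HSA hearts (mean 0.0625) and from -0.22 to 0.093 in AAV-VEGF-B hearts (mean -0.0625). The cytosolic one ran from -0.16 to 0.17 (mean 0.0415) and from -0.13 to 0.032 (mean -0.0415). A list of 23 other genes of mitochondrial proteins was kept as a measure of mitochondrial content. Its median change was -0.07, beside -0.02 over all probes, and with median scaling -0.06, beside 0.08. Of the 23 genes 0 were called and 4 were lower at an unadjusted p under 0.05, beside 9.38% of all probes. Below 0 lay 20 of them (16 with median scaling), beside 56.2% of all probes. Their mean log2 signal per heart ran from 12.67 to 12.78 in AAV-VEGF-B hearts and from 12.79 to 12.86 in AAV-HSA hearts, without overlap. How often such a mean separates the vectors was not tested. In whole tissue, fewer cells of a type and less RNA per cell cannot be told apart.

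Within the strata no gene passed either. In females after 2 months 0 of 34 genes passed, beside 3.32% of all probes, and at an unadjusted p under 0.05 (18.7% of all probes, 10% higher and 8.68% lower) the signal was higher for Gpx3 (0.32, adjusted p = 0.21) and lower for Cat (-0.40, 0.17) and Txnrd2 (-0.29, 0.19). In males after 4 months 0 of 34 passed, beside 0.788% of all probes, and neither count tells these genes from other probes. At an unadjusted p under 0.05 (11.4% of all probes, 6.93% higher and 4.49% lower) the signal was higher for Gstp1 (0.31, 0.30) and lower for Txnrd1 (-0.77, 0.093) and Gsta4 (-0.44, 0.40). The change had the same sign in both strata for 21 genes and opposite signs for 13. The difference between the strata was itself tested in limma, and 0 of the 34 genes passed, with 0 at an unadjusted p under 0.05. Over all probes 0 passed and 5.27% had an unadjusted p under 0.05.

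**Figure D3:**
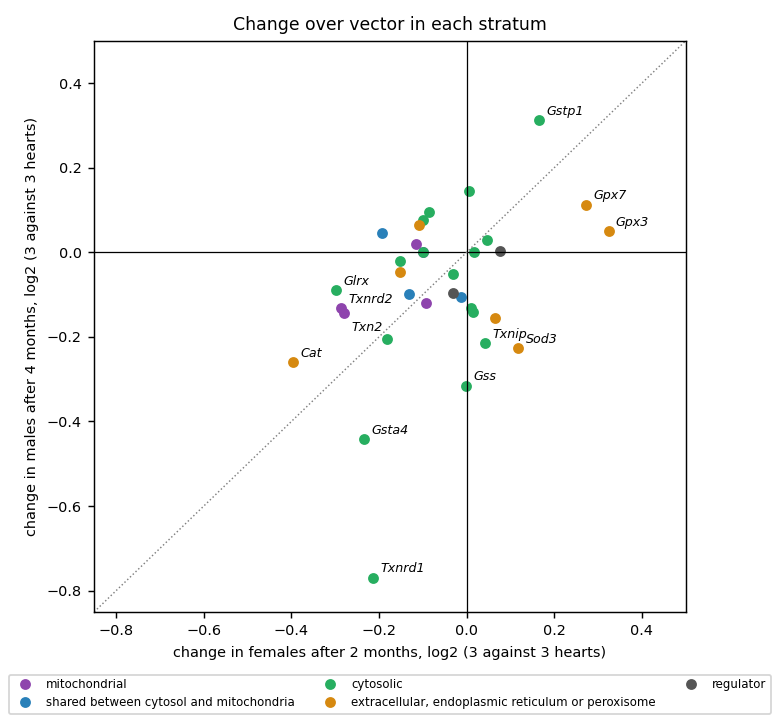
Change over vector of the 34 genes in females after 2 months (x axis) and in males after 4 months (y axis), log2, 3 against 3 hearts each, coloured by compartment; the dotted line marks equal change. Most points lie within 0.3 of 0 on both axes, and Txnrd1, at -0.21 and -0.77, lies farthest from the line.

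Between the strata themselves, 2 of the 34 genes passed, both higher in the males after 4 months, and 0 were lower, beside 1.06% of all probes (0.447% higher and 0.613% lower). Txn2, mitochondrial thioredoxin and the electron donor of Prdx3, was higher by 0.58 ± 0.10 (limma adjusted p = 0.026). It read 10.09, 10.12 and 9.87 in AAV-HSA females and 9.62, 9.74 and 9.87 in AAV-VEGF-B females. In the males it read 10.67, 10.42 and 10.50 with AAV-HSA and 10.31, 10.70 and 10.15 with AAV-VEGF-B. Every male heart was thus above every female heart, as for 1.51% of all probes, and the difference was 0.51 among AAV-HSA hearts and 0.65 among AAV-VEGF-B hearts.

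Gstm2, a mu-class glutathione transferase, was the other, higher by 0.43 ± 0.08 (adjusted p = 0.026). It read 10.63, 10.95 and 11.08 in AAV-HSA females and 10.78, 10.79 and 10.79 in AAV-VEGF-B females, against 11.26, 11.27 and 11.27 and then 11.34, 11.24 and 11.23 in the males with AAV-HSA and AAV-VEGF-B. Again all males were above all females, and the 6 males lay between 11.23 and 11.34. The difference was 0.38 with AAV-HSA and 0.48 with AAV-VEGF-B. Mu-class transferases are a family of similar genes, and whether the probe also reads a relative was not tested. Both calls are near the threshold. Without 1 heart at a time Txn2 lost its call without AAV-HSA replicate 5 (0.055) or AAV-VEGF-B replicate 1 (0.066), and Gstm2 without AAV-HSA replicate 1, 3 or 5 or AAV-VEGF-B replicate 1, 2, 4 or 6 (0.052 to 0.066), although the differences remained between 0.50 and 0.64 for Txn2 and between 0.37 and 0.48 for Gstm2.

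At an unadjusted p under 0.05, 4 more genes were higher in the males, Sod1 (0.17), Gpx7 (0.25), Txn1 (0.26) and Gstp1 (0.26, adjusted p = 0.12), and 3 were lower, Sod2 (-0.22), Gpx3 (-0.28) and Gclc (-0.27). In all 7 the values of males and females overlapped. Together with Txn2 and Gstm2 these were 9 of 34 genes, beside 16.5% of all probes (8.68% higher and 7.83% lower). Gstp1 passed without background correction (0.25, adjusted p = 0.047) and in the deposited table (0.25, 0.048). The second Gstp1 probe was at -0.09 ± 0.15 between the strata (0.82), so the 2 probes had opposite signs. Beside 1.06% of all probes, 1 of the 15 cardiomyocyte markers tested, Myh7, differed between the strata, at -0.42 in males minus females (adjusted p = 0.029). Of the 15 endothelial markers 1 did, Vwf, at -0.44 (0.040). The part of these cell types in the differences between the strata was not tested.

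**Figure D4:**
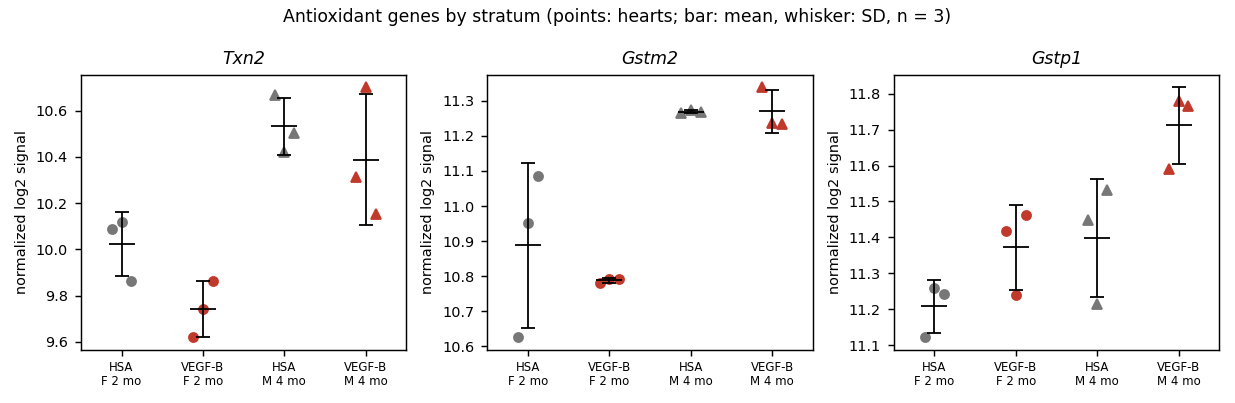
Normalized log2 signal of Txn2, Gstm2 and Gstp1 in each heart (circles, females after 2 months; triangles, males after 4 months; grey, AAV-HSA; red, AAV-VEGF-B), with the mean and SD of the 3 hearts of each group. All triangles lie above all circles for Txn2 and Gstm2, and the ranges overlap for Gstp1.

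Other genes of the redox system, 113 in 6 lists, gave 73 tested genes with a median change of -0.02. Of these 5 were higher and 2 lower with AAV-VEGF-B (9.59%, beside 5.2% of all probes) and 66 did not pass. The lists were chosen with earlier results of these data known, so the 2 shares are not a test of redox genes. Cyba, the p22phox subunit shared by NADPH oxidases, was higher by 0.53 ± 0.07 (limma adjusted p = 0.00061). It read 9.71 to 9.99 in the 6 AAV-HSA hearts and 10.24 to 10.45 in the 6 AAV-VEGF-B hearts. Nos3, endothelial nitric oxide synthase, was higher by 0.70 ± 0.11 (0.0010), from 9.69 to 10.38 in AAV-HSA and from 10.59 to 11.002 in AAV-VEGF-B hearts. In both genes every AAV-VEGF-B heart was above every AAV-HSA heart. These were the 2 calls among the 8 tested genes listed as oxidant-producing enzymes, which include subunits and a nitric oxide synthase. Their median change was 0.34, with 6 above 0 and 2 below, Ncf1 (-0.17) and Rac2 (-0.04). The oxidases Cybb, Nox4 and Duox2 were too dim to be tested, and Nox1 and Duox1 had no probe. Of the same list Maoa, a monoamine oxidase that makes hydrogen peroxide, differed between the strata, at -0.98 in males minus females (adjusted p = 0.013), and did not pass over vector (0.79 ± 0.31, adjusted p = 0.16).

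Mgst2, a microsomal glutathione transferase, was higher by 0.53 ± 0.10 (0.0051), the 1 call among 20 genes of glutathione metabolism. It read 8.26 to 8.46 with AAV-HSA and 8.53 to 9.13 with AAV-VEGF-B. Selenom, a selenoprotein of the endoplasmic reticulum, was higher by 0.45 ± 0.09 (0.0056), and Pon2, a paraoxonase of intracellular membranes, by 0.30 ± 0.07 (0.017). These were the 2 calls among 15 tested genes listed as thiol reductases, selenoproteins and other proteins such as Pon2. Neither overlapped between the groups: Selenom read 10.06 to 10.35 against 10.48 to 10.82 and Pon2 8.85 to 9.10 against 9.24 to 9.39. The 9 tested genes of the NADPH supply had a median change of -0.17, with 8 below 0. Of them 4 were lower at an unadjusted p under 0.05 in limma, beside 9.38% of all probes. Their mean log2 signal per heart ran from 9.88 to 10.04 in AAV-VEGF-B hearts and from 10.07 to 10.15 in AAV-HSA hearts, without overlap. The 1 call among them, Mthfd1 of the cytosolic folate cycle, fell by 0.25 ± 0.07 (0.042). It read 9.77 to 9.93 in AAV-HSA and 9.54 to 9.77 in AAV-VEGF-B hearts, 5 of which were below every AAV-HSA heart. Cbr1, a carbonyl reductase, fell by 0.51 ± 0.14 (0.049), the 1 call among 16 NRF2 partners and other targets. It read 9.89 to 10.60 with AAV-HSA and 9.36 to 10.07 with AAV-VEGF-B, so the groups overlapped. Both falls lost their call with median scaling (0.40 and 0.11). When 1 heart at a time was left out, Mthfd1 was called only without AAV-HSA replicate 6 or AAV-VEGF-B replicate 6 (adjusted p up to 0.091 without each of the others). Cbr1 was called only without AAV-HSA replicate 1 or 2 or AAV-VEGF-B replicate 4 (up to 0.10). Of 5 genes of metal binding 0 passed, with 1, Mt1, a metallothionein, at an unadjusted p under 0.05 (-0.66 ± 0.24, adjusted p = 0.13).

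**Figure D5:**
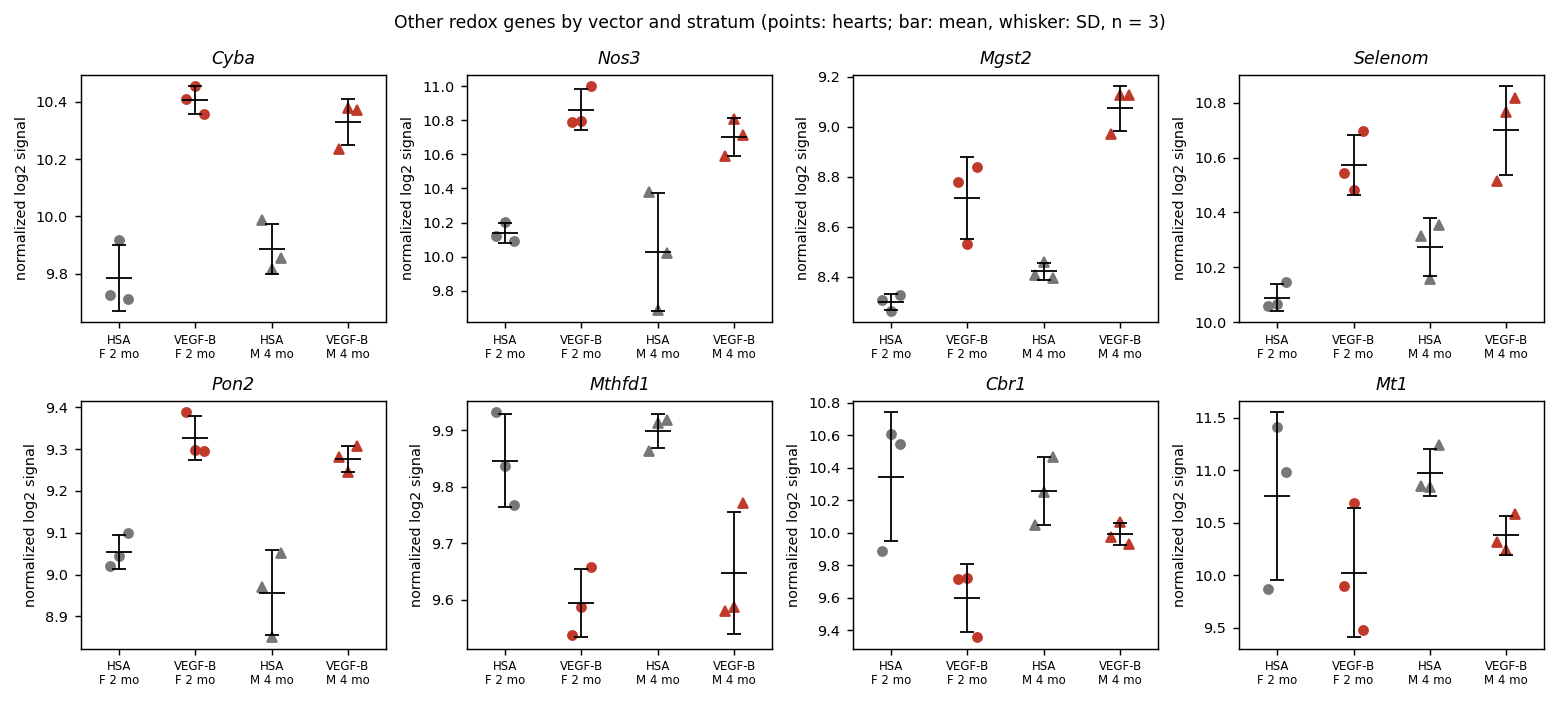
Normalized log2 signal of Cyba, Nos3, Mgst2, Selenom, Pon2, Mthfd1, Cbr1 and Mt1 in each heart (circles, females after 2 months; triangles, males after 4 months; grey, AAV-HSA; red, AAV-VEGF-B), with the mean and SD of the 3 hearts of each group. All red points lie above all grey points for Cyba, Nos3, Mgst2, Selenom and Pon2, and the groups overlap for Mthfd1, Cbr1 and Mt1.

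Markers of the blood vessel wall moved with these calls. Over all probes 4.17% were higher and 1.03% lower with AAV-VEGF-B, and the counts that follow stand beside these shares. Of 15 endothelial markers tested 8 were higher and 0 lower with AAV-VEGF-B, with a median change of 0.49. The summed signal of the 16 with a probe, the dim Robo4 included, was 15553 to 18730 in AAV-VEGF-B hearts and 10719 to 13361 in AAV-HSA hearts. Of 5 smooth muscle and pericyte markers 2 were higher, and 1 each of 12 fibroblast (Fap), 8 macrophage and leukocyte (Aif1) and 7 red blood cell markers (Ahsp). None of the 15 cardiomyocyte markers passed in either direction, nor at an unadjusted p under 0.05 in limma (20% of all probes). Their sums were 322742 to 347565 in AAV-VEGF-B hearts and 329774 to 350313 in AAV-HSA hearts. Of 3 adipocyte markers 0 passed. The part of these cell types in the levels of Cyba, Nos3, Mgst2, Selenom and Pon2 was not tested.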

How the data were processed

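Left ventricular RNA of 12 rats, 6 per vector and 3 per vector and stratum, was measured on 1 array each; the methods describe separate animals. The authors deposited non-normalized signal intensities of the probes, each with a detection p-value, and a table of log2 values. These log2 values lie within 0.0093 of the quantile-normalized signals on the log2 scale. Per the methods the signals were exported from GenomeStudio and were quantile-normalized and tested in Chipster (empirical Bayes, Benjamini-Hochberg). Their background correction and filter, and the slide positions, were not given in the sources used here.

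Here the intensities were normalized with neqc (limma 3.58.1, R 4.3.3), which infers background from the detection p-values, adds an offset of 16, quantile-normalizes and takes log2. Probes detected at p under 0.05 on 3 or more of the 12 arrays were tested with lmFit and eBayes, without covariates for the vector, and with 4 groups for strata, their difference and the difference of changes. P-values were adjusted over all tested probes, threshold 0.05. Intervals are unadjusted 95% intervals of limma's fit. The number of arrays limits the precision.

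Probes were named through GEO's platform annotation (13787 with 1 symbol, 8730 with none here, 0 with several). A gene was given by its brightest probe. Every gene of the list is accounted for, with values per heart for those called between strata or with an unadjusted p under 0.05 for the vector over 12 hearts, and up to 4 called genes in each of the other lists. The members and lists were chosen with earlier results of these data known. Alternatives were another background correction, scaling, table, filter, block and set of hearts. The steps were run on simulated data without differences between the strata, as a check of the code alone. That run does not measure how small a change these arrays can show.

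Replicate numbers do not pair the hearts: same-numbered hearts of the vectors were of opposite sex, and the correlations of their deviations ran from -0.065 to 0.050.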

Additional observations from a re-analysis of the deposited data

Results flagged for a closer look

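In 68 sets of 6 hearts, 1 gene in 1 vector group each, 3 held a heart whose gap to the nearest other, over the range of its group, exceeded the 95% limit of Dixon's test, and chance alone gives about 1 in 20. For Txnrd2, AAV-VEGF-B replicate 1, a female, read 9.51 while the other 5 read 9.78 to 9.92, and without it the change over vector was -0.15 in place of -0.21. For Gstm1, a mu-class glutathione transferase, AAV-VEGF-B replicate 5, also a female, read 9.47 beside 10.01 to 10.31, and without it the change was 0.11 in place of -0.01. For Prdx6, AAV-HSA replicate 4, a female, read 13.3 beside 12.91 to 13.05, and without it the change was 0.09 in place of 0.04. None of the 3 genes passed with or without that heart.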

How the results depend on the processing

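The number of antioxidant genes called over vector was 0 in the main analysis and 1 (Cat, lower) without background correction and in the deposited log2 table, and 0 to 1 without 1 heart at a time. It stayed at 0 with median scaling, either other filter and stratum as a block. Over all probes the calls were 869 with median scaling and 342 with the replicate block, against 535. With stratum as a block 494 probes were higher and 180 lower, against 429 and 106. Median scaling moved the median of all probes from -0.02 to 0.08, with 842 higher and 27 lower (96.9% higher, against 80.2%). In the replicate block 0 genes were called over vector and 0 between strata, against 2 (Txn2 adjusted p = 0.052, Gstm2 0.083), and Pon2 (0.075), Mthfd1 (0.14) and Cbr1 (0.074) lost their calls. The changes within strata and their difference cannot be estimated with that block. Between strata 0 to 2 of the genes were called without 1 heart at a time. Over all probes 109 were called, 257 without background correction, 250 in the deposited table, 69 without a filter, 22 with the replicate block and 25 to 108 without 1 heart.

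No called value changed sign. With median scaling the uncalled changes of 11 genes turned above 0: Sod2 (0.018), Sod3 (0.067), Txn1 (0.062), Gsr (0.035), Gstm1 (0.11), Gstm2 (0.059), Mgst1 (0.075), Nqo1 (0.063), Hmox1 (0.13), Hmox2 (0.033) and Keap1 (0.059). Without 1 heart at a time 11 genes crossed 0: Sod2 (-0.088 to 0.018), Sod3 (-0.096 to 0.016), Prdx1 (-0.018 to 0.044), Prdx2 (-0.018 to 0.040), Txn1 (-0.10 to 0.016), Gclc (-0.026 to 0.17), Gstm1 (-0.12 to 0.11), Gstm2 (-0.14 to 0.00050), Mgst1 (-0.10 to 0.038), Hmox1 (-0.11 to 0.078) and Nfe2l2 (-0.00085 to 0.073). Cbr1 also lost its call without a filter (0.087). Cyba, Nos3, Mgst2 and Selenom were called under all 19 alternatives. The cause of these shifts was not tested. Signal over background kept Srxn1 out of the tests and was low for Gsta4 and Gpx7, with a detection p of up to 0.04 and 0.023.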
